A study of Mus musculus with 2 samples.

Results

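The levels of 10 genes were compared in alveolar macrophages. They were the MiT/TFE transcription factors Mitf, Tfeb, Tfe3 and Tfec, and the genes of the FLCN-FNIP complex that acts on them (Flcn, Fnip1 and Fnip2). The other 3, called the motor genes here, were Myo5a, Mlph and Mreg. Myo5a and Mlph encode parts of an actin-based organelle transport motor, and Mreg is linked to it through mouse coat colour. Genes were taken by symbol, from the rows (probe sets) of the array to which the platform annotation gives exactly 1 gene symbol. All 10 genes were found, each with 1 row, among 22180 genes named in this way. The genes were chosen by name with the differences between these same arrays in view, so those differences are given as a description and nothing is read from how many of them are large. The samples were a knockout-labelled array of alveolar macrophages from adult C57BL6 mice with floxed Pikfyve alleles and LysM-Cre, and a wild-type-labelled array from littermates with the floxed alleles alone. LysM-Cre is a Cre recombinase made from the lysozyme 2 locus, which is active in macrophages, monocytes and neutrophils. Per the labels' protocols, the cells were released from lung with collagenase and sorted as Siglec-F+ CD11c+ cells that excluded DAPI. Each genotype had 1 array, the labels do not give the number of mice behind it, and no difference between genotypes could be tested.

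MiT/TFE proteins are basic helix-loop-helix leucine zipper factors that bind E-box sequences and drive genes of lysosomes and autophagy. In fed cells they are phosphorylated at the lysosome surface by the kinase complex mTORC1 and are held in the cytosol by 14-3-3 proteins, and FLCN with FNIP1 or FNIP2 permits this by acting on the Rag GTPases. Their activity is thus set largely by where the proteins are, which RNA levels do not measure. The motor genes are best known from mouse pigment cells, where myosin Va (Myo5a) holds melanosomes on actin through melanophilin (Mlph) and the small GTPase Rab27a, and where melanoregulin (Mreg) modifies the coat colour of animals without that motor. Alveolar macrophages live in the airspaces of the lung and clear surfactant and inhaled particles through endosomes and lysosomes, the organelles on which PIKfyve makes phosphatidylinositol 3,5-bisphosphate.

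Values are log2 signals of the deposited table, and differences are the knockout-labelled minus the wild-type-labelled array. The comparison was set against the 12516 genes with an average signal of at least 5.13, the median over rows. A background level was taken as the 95th percentile of 1428 olfactory, vomeronasal and taste receptor genes, which was 5.31 in the knockout-labelled array and 5.37 in the wild-type-labelled array. The local spread, a robust SD of the differences of genes of similar level, was between 0.20 and 0.33; noise and real differences both enter it. Pikfyve itself was not lower where the label says knockout: it read 5.95 in the knockout-labelled array and 5.68 in the wild-type-labelled array. The position of its probes and of the deleted exons is unknown here, so this row does not check the labels. All 14 measured alveolar macrophage markers, among them Siglecf, Itgax, Marco and Pparg, lay above background on both arrays, with summed linear signals of 51041.6 in the knockout-labelled array and 50164.8 in the wild-type-labelled array. Of them, Fabp4 was at least 1.5-fold higher, and Siglecf, Krt79, Lpl and Flt1 were at least 1.5-fold lower. Those are 1 and 4 of the 14 markers, beside 4.45% and 2.66% of all genes analysed. The summed linear signal of other marker lists, as a ratio of the knockout-labelled to the wild-type-labelled array, was 1.37 for neutrophils, 1.37 for endothelium, 1.10 for dendritic cells, 0.947 for B cells, 0.927 for monocytes and interstitial macrophages and 0.713 for eosinophils. Siglecf, also an alveolar macrophage marker, was by far the brightest eosinophil gene, at 8.54 in the knockout-labelled array and 9.27 in the wild-type-labelled array. Of the other eosinophil genes, Prg2 was at least 1.31-fold higher, and Ccr3, Il5ra and Alox15 lay at background on both arrays. The endothelium genes Cdh5, Kdr, Tek, Cldn5 and Emcn lay at background on both arrays. Calcrl was 1.91-fold and Cav1 at least 2.17-fold higher, and Pecam1 was 1.16-fold lower. T and NK cell markers summed to 1142 in the knockout-labelled array and 771 in the wild-type-labelled array. Their part in the values below was not tested.

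The 3 motor genes were higher in the knockout-labelled array, and the 4 transcription factors and the 3 genes of the FLCN-FNIP complex differed by less than 1.5-fold. Myo5a was 3.29-fold higher, Mreg read 2.04-fold higher from a level below background, and Mlph was 1.51-fold higher. Of the 10 genes, 3 passed 1.5-fold upward and 0 downward, beside 4.45% upward and 2.66% downward among all genes analysed. Myo5a and, as read, Mreg passed 2-fold upward, as did 0.927% of all genes, and both exceeded 3 local spreads, as did 2.32% of all genes in either direction. All 10 genes passed the filter on low values. Mreg did so by less than 0.01 and only through its value in the knockout-labelled array, so it had to differ to enter the comparison. The median difference of the 10 genes was 0.13, beside 0.00 over all genes analysed.

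**Figure D1:**
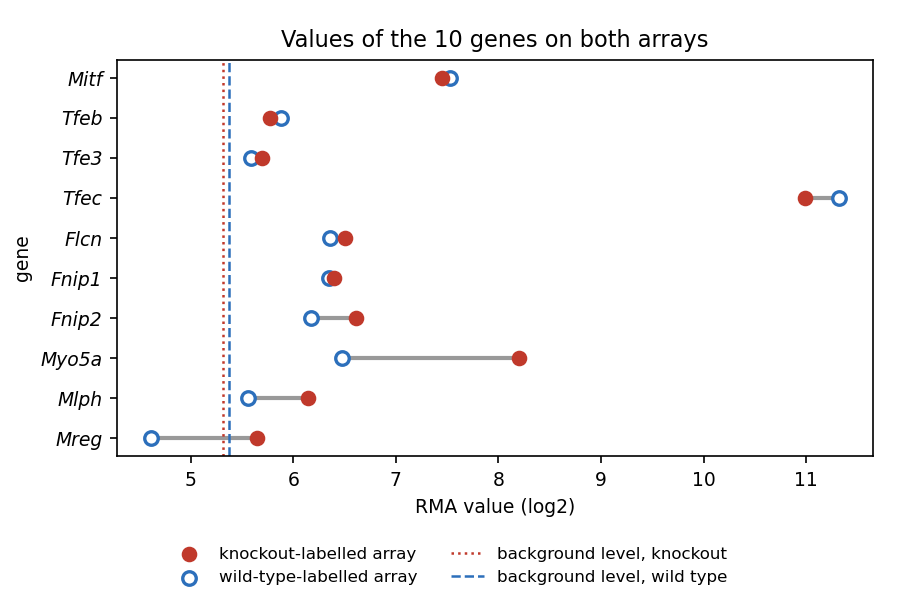
Values of the 10 genes (horizontal axis, RMA value on the log2 scale) in the knockout-labelled array (filled points) and the wild-type-labelled array (open points), with 1 array each and so no error bars. Dotted and dashed vertical lines mark the background level of the knockout-labelled array (5.31) and the wild-type-labelled array (5.37). The points lie apart for Myo5a, Mreg and Mlph, and Mreg alone lies below background in the wild-type-labelled array.

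Myo5a encodes myosin Va, a motor that walks along actin and carries vesicles, melanosomes and RNA. It read 8.20 in the knockout-labelled array and 6.48 in the wild-type-labelled array, a difference of 1.72. That was 5.86 times the local spread of 0.29, and 29 of the 12516 genes analysed had a larger positive difference. Both values lay above background, by 2.89 in the knockout-labelled array and 1.11 in the wild-type-labelled array.

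Mlph encodes melanophilin, the adaptor that binds both Rab27a and myosin Va. Its row read 6.15 in the knockout-labelled array and 5.55 in the wild-type-labelled array, which lay only 0.18 above background. The difference of 0.59 was 2.26 times the local spread, just past the 1.5-fold threshold, and 540 genes had a larger positive difference. Fnip2, the next of the 10 genes below that threshold, was 1.36-fold higher. Airway epithelium also makes melanophilin. The 18 lung epithelium markers had a summed linear signal of 11947.5 in the knockout-labelled array and 9966.1 in the wild-type-labelled array. Of them, 15 lay above background in the knockout-labelled array and 13 in the wild-type-labelled array, and Foxj1, Sftpb and Sftpd lay at background on both. Of the 17 epithelium markers that passed the filter, 5 were at least 1.5-fold higher and 1 was at least 1.5-fold lower. Among all genes analysed these shares were 4.45% and 2.66%. The secretory genes Bpifa1 (5.53-fold), Scgb3a1 (2.77-fold) and Scgb3a2 (1.99-fold) and the surfactant genes Sftpa1 (1.80-fold) and Sftpc (1.72-fold) were higher, and the adhesion gene Epcam was 3.98-fold lower. Scgb1a1, the brightest row of the list, read 12.39 in the knockout-labelled array and 12.26 in the wild-type-labelled array. The part of these cells in the Mlph value was not tested, and in a bulk sample more cells of a type and more RNA per cell cannot be told apart.

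Mreg encodes melanoregulin, a small membrane-associated protein studied in melanosome transfer and in the maturation of phagosomes and lysosomes. Its values were 5.65 in the knockout-labelled array and 4.62 in the wild-type-labelled array, where 84.3% of the receptor genes lay below it. The difference as read was 1.03, or 3.96 times the local spread. Measured from the background level, Mreg was at least 1.21-fold higher. Its value in the knockout-labelled array lay 0.34 above background, higher than 96.8% of the receptor genes.

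Rab27a, the GTPase that anchors the melanophilin and myosin Va pair to an organelle, was also higher in the knockout-labelled array. It read 6.10 in the knockout-labelled array and 5.43 in the wild-type-labelled array, a 1.59-fold difference from a level close to background. With an offset of 32 added to the linear signals, no gene of the list that holds Rab27a reached 1.5-fold. Of the 21 genes listed as Rab27 and Rab11 effectors, class V myosins and their partners, 15 passed the filter. Rab27a was the single one at least 1.5-fold higher, 0 were 1.5-fold lower, and the list median was 0.02. Among all genes analysed, 4.45% were at least 1.5-fold higher and 2.66% were at least that much lower. Rab3gap1, part of a Rab3 regulator, differed by 0.48, Rab11fip2, an adaptor between Rab11 and class V myosins, by 0.33, and the Rab effector gene Rph3a by 0.23. The other class V myosins did not show the Myo5a difference: Myo5b read 4.64 in the knockout-labelled array and 4.65 in the wild-type-labelled array, below background on both, and Myo5c, at 5.26 in the knockout-labelled array and 5.13 in the wild-type-labelled array, was also below background on both. The light chain genes Dynll1 and Dynll2, whose products bind myosin Va, differed by 0.07 and -0.19.

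Myosin motors of other classes mostly lay on the other side of 0. Of 15 listed genes, 14 were measured and 10 passed the filter, with 8 lower and 2 higher in the knockout-labelled array and none 1.5-fold apart. Their median difference was -0.28. Among all genes analysed, 48.9% lay above 0, 4.45% were at least 1.5-fold higher and 2.66% were at least that much lower. The class I myosin gene Myo1g differed by -0.40, Myo9a by -0.36, Myo1c by -0.33 and Myo1f by -0.32.

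**Figure D2:**
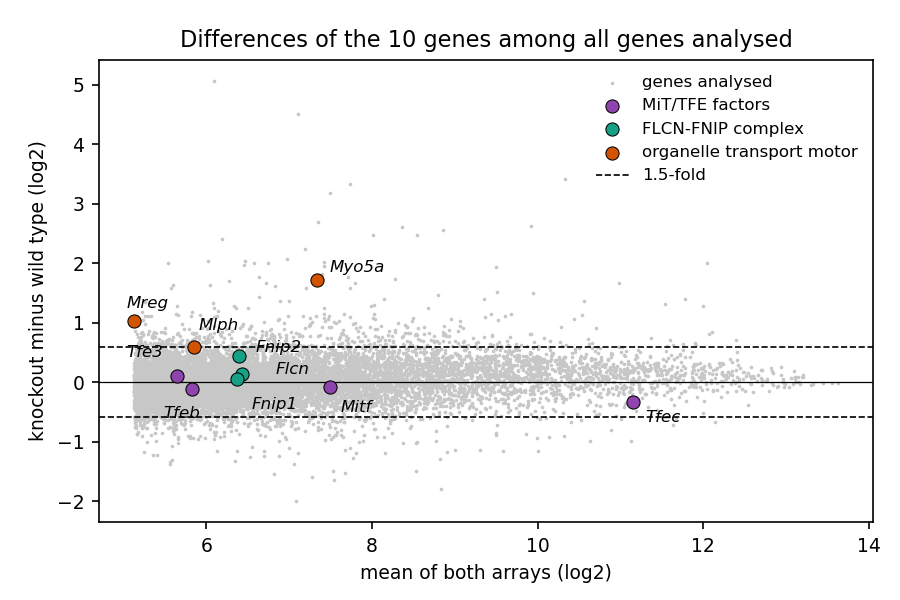
Difference between arrays (vertical axis, knockout-labelled minus wild-type-labelled, log2) against the mean of both arrays (horizontal axis, log2) for the 12516 genes analysed (grey) and the 10 genes (coloured by role). Dashed lines mark 1.5-fold. Myo5a stands at 1.72, Mreg at 1.03 on the left edge of the filter, and Mlph at 0.59 on the dashed line, while the other 7 lie between the dashed lines.

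The 4 MiT/TFE genes differed by between -0.32 and 0.11, with a median of -0.09. Tfec, whose expression is largely restricted to macrophages and related cells, read 10.99 in the knockout-labelled array and 11.32 in the wild-type-labelled array. It was 1.25-fold lower, a difference of -1.59 local spreads. Mitf, the factor of melanocytes, osteoclasts and mast cells, read 7.45 in the knockout-labelled array and 7.53 in the wild-type-labelled array. Tfeb, a main driver of lysosomal genes, read 5.77 in the knockout-labelled array and 5.88 in the wild-type-labelled array. Tfe3, which shares many targets with Tfeb, read 5.69 in the knockout-labelled array and 5.59 in the wild-type-labelled array. The differences of Mitf, Tfeb and Tfe3 were smaller than their local spread, at -0.08, -0.11 and 0.11. Tfeb and Tfe3 lay less than 1 log2 unit above background on both arrays.

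The FLCN-FNIP genes were each slightly higher in the knockout-labelled array. Flcn, which encodes folliculin, the GTPase-activating protein for the Rag GTPases, read 6.50 in the knockout-labelled array and 6.36 in the wild-type-labelled array. Its partner gene Fnip1 read 6.40 in the knockout-labelled array and 6.35 in the wild-type-labelled array. For Fnip2, the second partner, the values were 6.62 in the knockout-labelled array and 6.17 in the wild-type-labelled array. Its difference of 0.44 was 1.64 times the local spread, and those of Flcn and Fnip1, 0.14 and 0.05, were smaller than their local spread.

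Genes that act on MiT/TFE proteins from the lysosome surface mostly differed by less than 1.5-fold between the arrays. The same held for all genes analysed, of which 4.45% passed this threshold upward and 2.66% downward. Of 34 genes of lysosomal nutrient sensing, 27 passed the filter, with 2 at least 1.5-fold higher, 0 at least 1.5-fold lower and a median of -0.02. Tbc1d7, a subunit of the TSC complex, was 1.55-fold higher and Prkaa1, the catalytic AMPK subunit alpha 1, differed by 0.59, on the threshold. The Ragulator subunit gene Lamtor1 differed by 0.41, and Tsc1, another TSC subunit, by -0.43 with its value in the knockout-labelled array below background. Rragd, which encodes the Rag GTPase RagD and is itself a MiT/TFE target, did not pass the filter and lay below background on both arrays, at 5.13 in the knockout-labelled array and 4.27 in the wild-type-labelled array. Of 21 genes of 14-3-3 proteins, calcineurin, lysosomal calcium channels and related kinases, 16 were measured and 15 passed, with 1 at least 1.5-fold higher and a median of -0.15. That gene was Mcoln2, a mucolipin channel, which read 6.41 in the knockout-labelled array and 5.63 in the wild-type-labelled array. Mcoln3, a second mucolipin gene, was 1.47-fold higher, and the calcineurin subunit genes Ppp3ca and Ppp3cb differed by -0.42 and -0.36.

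Among known targets of the factors, the genes that stood out were higher in the knockout-labelled array. Of 29 lysosomal and autophagy targets of TFEB and TFE3, 26 were measured and 23 passed the filter. In this list 4 were at least 1.5-fold higher, 0 were at least 1.5-fold lower, 17 of 23 lay above 0, and the median was 0.18. Across all genes analysed, 4.45% were at least 1.5-fold higher, 2.66% were at least that much lower and 48.9% lay above 0. The 4 were Gpnmb, a glycoprotein of lysosome-loaded macrophages and pigment cells (2.58-fold), the alpha-galactosidase gene Gla (1.74-fold), the serine carboxypeptidase gene Scpep1 (1.63-fold) and Naglu, a lysosomal glucosaminidase (1.62-fold).

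Of 24 MITF targets in osteoclasts and pigment cells, 15 passed the filter, 5 were at least 1.5-fold higher, 0 were lower, and the median was 0.11, beside the same 4.45% and 2.66% of all genes and a median of 0.00. Beside Rab27a and Gpnmb these were Ctsk (a difference of 1.32), Cd63 (2.42-fold) and Acp5 (2.19-fold). Acp5, the tartrate-resistant phosphatase of osteoclasts and alveolar macrophages, read 11.11 in the knockout-labelled array and 9.97 in the wild-type-labelled array. The lysosomal protease gene Ctsk read 12.20 in the knockout-labelled array and 10.88 in the wild-type-labelled array. Gpnmb, Clcn7 and Ppargc1a stand in both target lists, and Rab27a also stands among the Rab effectors. The pigment enzyme genes of the list were not detected: Tyr, Tyrp1 and Dct lay below background on both arrays. Of the 10 melanocyte markers, 4 lay above background in the knockout-labelled array and 5 in the wild-type-labelled array, with summed linear signals of 371 in the knockout-labelled array and 383 in the wild-type-labelled array. Mast cells, which use Mitf, were as little marked: of 11 markers, 3 lay above background in the knockout-labelled array and 2 in the wild-type-labelled array, and Cpa3, Mcpt4, Tpsb2 and Fcer1a lay at background on both. The summed mast cell and basophil signal was 276 in the knockout-labelled array and 279 in the wild-type-labelled array.

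The machinery that builds and moves lysosome-related organelles apart from the actin motor held few genes 1.5-fold apart. So did all genes analysed, with 4.45% at least 1.5-fold higher and 2.66% at least that much lower. All 22 genes of the BLOC, HPS and AP-3 complexes, which sort cargo to melanosomes, platelet granules and lysosomes, passed the filter, and none was 1.5-fold apart (median 0.01). Snapin, a BLOC-1 subunit gene, differed by 0.45, the AP-3 subunit genes Ap3s1 and Ap3b1 by 0.37 and -0.31, and Hps4 by -0.27. Of 33 genes that place lysosomes on microtubules, 28 passed, with a median of -0.03, 0 at least 1.5-fold higher and 1 lower. That gene was the kinesin gene Kif1b, which read 4.88 in the knockout-labelled array and 5.50 in the wild-type-labelled array; measured from background it was at least 1.14-fold lower. Borcs7, of the BORC complex that recruits kinesin to lysosomes, differed by 0.47, the dynein heavy chain gene Dync1h1 by -0.33 and the dynein regulator gene Pafah1b1 by -0.30. Rilp, whose product recruits dynein to late endosomes and binds melanoregulin in pigment cells, read 7.56 in the knockout-labelled array and 7.45 in the wild-type-labelled array.

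**Figure D3:**
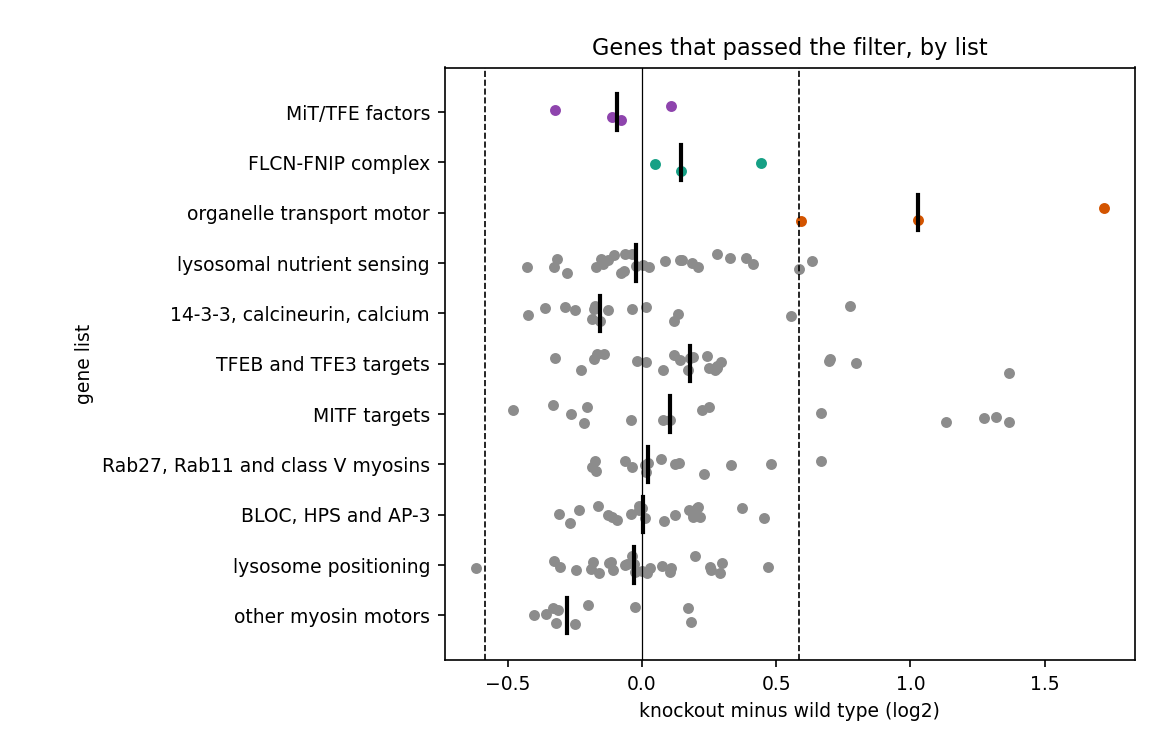
Difference between arrays (horizontal axis, knockout-labelled minus wild-type-labelled, log2) for each gene that passed the filter, by list (vertical axis, points spread for legibility), with black bars at the list medians and dashed lines at 1.5-fold. The motor genes lie at 0.59, 1.03 and 1.72, and the medians of the 8 other pathway lists lie between -0.28 and 0.18.

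MiT/TFE factors bind the E-box CACGTG, the core of the CLEAR element of lysosomal genes, and its relative CATGTG. These letters were searched on both strands of RefSeq promoter windows (GRCm38.p6, 250 bases before to 50 after a transcript start, 300 bases each), of which the 10 genes have 16. The windows of Fnip1 and Mlph held CACGTG, and in both the match extended to TCACGTG on one strand. For comparison, 8.09% of 27025 genes had a window with CACGTG and 4.29% one with TCACGTG, a motif whose matches all overlap a CACGTG. None of the 10 genes had CATGTG, present in 15.9% of genes. The matches are shown because they are the letters these factors read, with the E-box in capitals. Rab27a and Gpnmb, which are not among the 10 genes, were searched as well. The Rab27a match lies at the far end of the second of its windows. The first window of Rab27a and the window of Gpnmb held none of the motifs.
Mlph, chr1:90915040-90915069, plus strand: tcaggagtagccCACGTGatctgagccgca
Fnip1, chr11:54438092-54438121, plus strand: tcagtttgctgcCACGTGatacggctcgtc
Rab27a, chr9:73063898-73063919, plus strand: cttgCACGTGctcctccgtctg

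Counted from the transcript start of the window, the E-box of Mlph begins at -48 and that of Fnip1 at -75. Fnip1, which holds the same 7 letters as Mlph, differed by 0.05 between arrays, and Mlph by 0.59. Myo5a and Mreg had none of the motifs in these windows, which says only that these letters are absent there. The sequence before the start of each of the 3 motor genes is given for reference. Whether these genes are regulated alike was not tested. Capitals would mark CACGTG or CATGTG, and none of these stretches holds either. The stretch of Mlph stops where the gene begins in the RefSeq table, before its E-box. G and C made up 74.0% of the Myo5a stretch, 54.4% of that of Mreg and 62.6% of that of Mlph.
Myo5a, chr9:75070956-75071205, plus strand: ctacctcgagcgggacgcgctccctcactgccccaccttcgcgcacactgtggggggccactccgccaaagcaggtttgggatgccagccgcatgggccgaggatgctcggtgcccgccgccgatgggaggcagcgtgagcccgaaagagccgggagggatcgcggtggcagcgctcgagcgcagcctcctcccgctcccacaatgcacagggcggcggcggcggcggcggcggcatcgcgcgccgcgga
Mreg, chr1:72212315-72212564, minus strand: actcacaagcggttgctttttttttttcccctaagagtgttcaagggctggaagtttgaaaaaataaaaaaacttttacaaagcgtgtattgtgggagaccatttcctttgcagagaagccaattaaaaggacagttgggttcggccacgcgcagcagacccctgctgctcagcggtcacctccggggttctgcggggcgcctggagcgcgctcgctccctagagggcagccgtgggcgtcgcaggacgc
Mlph, chr1:90914850-90915023, plus strand: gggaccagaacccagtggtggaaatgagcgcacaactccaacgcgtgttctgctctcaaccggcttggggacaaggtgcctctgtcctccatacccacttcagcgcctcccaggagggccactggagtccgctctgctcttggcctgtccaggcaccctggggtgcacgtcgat

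Centring each array on its median shifted the median of all genes analysed by 0.07 and left the direction of each of the 10 differences as it was. So did quantile normalisation and loess centring. An offset of 32 added to the linear signals cannot change a direction, only its size. The offset, which shrinks differences of dim rows, brought Mreg to 0.54 and Mlph to 0.38, so that Myo5a, at 1.43, was the one gene of the 10 at least 1.5-fold higher.

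**Figure D4:**
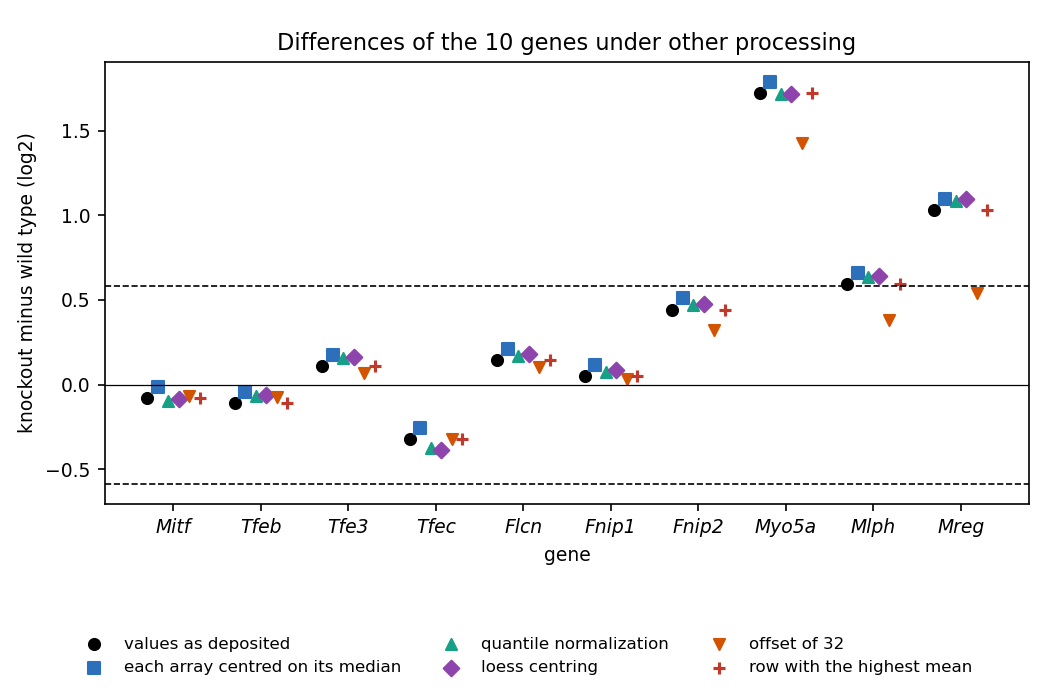
Difference between arrays (vertical axis, knockout-labelled minus wild-type-labelled, log2) for the 10 genes (horizontal axis) on the values as deposited and under 5 other ways of processing them, with dashed lines at 1.5-fold. Myo5a stays between 1.43 and 1.79, Mreg between 0.54 and 1.10 and Mlph between 0.38 and 0.66, and Tfec lies between -0.39 and -0.26. Each gene has 1 row, so taking the row with the highest mean repeats the deposited values, and the offset cannot change a direction.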

How the data were processed

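The deposited table holds log2 values of 41345 rows on 2 arrays, made by the authors with RMA (background correction, normalisation between arrays and summary of the probes of a row), per the submitters' processing notes. The RMA version, array annotation and build are not stated. The log2 scale was taken from the method and the range, 0.83 to 13.78 in the knockout-labelled array and 0.77 to 13.86 in the wild-type-labelled array.

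Rows were named through the platform's gene annotation: 23521 had 1 symbol, 1814 several and 16010 none, and rows of 1 gene were averaged. Of the rows with several symbols, 0 held one of the 10 genes. The row identifiers of the 10 genes matched RefSeq entries (GRCm38.p6). Genes entered the comparison at a mean of 5.13 or more. For the local spread, the median absolute deviation was multiplied by 1.4826 within 20 bins of level. With 1 array per genotype there is no test, and the number of arrays limits the precision; signal over background is the only depth shown. Where a gene lay below background on 1 array its fold was measured from that level and written "at least".

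The 10 genes, 8 pathway lists and 11 marker lists were chosen with earlier results of these data known. Named were the 10 genes, Pikfyve and the 4 genes of each pathway list with the largest absolute difference; Rragd, Myo5b, Myo5c, Dynll1, Dynll2, Rilp, Tyr, Tyrp1, Dct and other genes named were chosen for their role, after their values were seen. Alternatives were other filters, centring, quantile normalisation, loess centring (span 0.3), an offset of 32, the row with the highest mean and other thresholds. The procedure was run on simulated data with Python 3.11.15, pandas 2.3.3 and statsmodels 0.14.6. That run checks the code only, because its noise was too small to pass 1.5-fold and its planted differences exceeded 1.5-fold.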

Additional observations from a re-analysis of the deposited data

How the results depend on the processing

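The 10 differences kept their direction under median centring, quantile normalisation and loess centring. The offset cannot change a direction, and taking the row with the highest mean changes nothing for genes with 1 row. With the offset of 32, Mreg moved to 0.54 and Myo5a to 1.43; the other 8 genes moved by less than their local spread. The count of 3 genes at least 1.5-fold higher became 1 with the offset and 1 when filtering at the 75th percentile, which keeps 5 of the 10. It was 2 when filtering at the background of receptor genes, 2 at a threshold of 2-fold and 2 at 3 local spreads, beside 0.927% of all genes at least 2-fold higher and 2.32% past 3 spreads in either direction. Of the pathway lists, the count higher for 14-3-3, calcineurin and calcium genes was 2 with median centring and 0 with the offset or when filtering at the 75th percentile. That for Rab27 and Rab11 effectors was 0 with the offset or that filter. For nutrient sensing it was 1 with loess centring or quantile normalisation, 4 with no filter and 0 with the offset. The count lower for lysosome positioning, 1 as deposited, was 0 under median centring, quantile normalisation, loess centring, the offset and the 2 stricter filters. The median of the MITF targets was 0.69 over the 8 genes that pass the 75th percentile. Causes were not tested beyond the genes each filter leaves out. Low signal limits Mreg, Mlph, Tfeb and Tfe3, which lie near background. No paired analysis was possible because each genotype had 1 array.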

Other observations

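Mreg and Mlph lie on chromosome 1 with Pikfyve, 23 and 193 measured genes away in the order of the RefSeq table (GRCm38.p6). Of the 10 measured genes on each side of Mreg, 13 passed the filter, with a median difference of 0.20. Gm5528, the gene next to Mreg, was the 1 of them at least 1.5-fold higher, at 7.10 in the knockout-labelled array and 6.49 in the wild-type-labelled array. The fibronectin gene Fn1 differed by -1.54. Tmem169, below background in the knockout-labelled array, was at least 1.22-fold lower, and Pecr, a peroxisomal reductase gene on the other side of Mreg, differed by 0.42. Of the 20 neighbours of Mlph, 11 passed, with a median of -0.14; 0 were 1.5-fold higher, Lrrfip1 differed by -0.64, and Prlh, below background in the knockout-labelled array, was at least 1.55-fold lower. Myo5a, with the largest difference of the 10 genes, lies on chromosome 9.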
